A study of Homo sapiens with 18 samples.

Results

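Cells with a 4N DNA content sorted after cytochalasin D were compared with untreated cells with a 2N DNA content, as 3 libraries against 3 of the 18 in the series. The members are the genes whose level averaged 0.5 RPKM or more (reads scaled by gene length and library size), 13037 of the 57773 identifiers in the deposited table. Both groups were hTERT-RPE1, an established line of human retinal pigment epithelium that carries telomerase and is close to diploid, grown with 10% serum and sorted by flow cytometry after DNA staining with Hoechst at 2 µg/mL for 60 min. The cytochalasin D group had been given that drug, which caps actin filaments and so stops the division of the cytoplasm, and the untreated group had not. Neither dose nor duration of cytochalasin D is stated in the labels, which repeat the same treatment text, ZM447439 at 2.5 µM for 24 h, on every library. ZM447439 inhibits Aurora kinases. The remaining groups used here were untreated 4N cells, cytochalasin D 2N cells and ZM447439 4N cells, each with 3 libraries.

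A cell that copies its DNA and fails to divide enters the next G1 phase with the 4N content that a normal cell holds only in G2 and mitosis. An untreated 4N sort is therefore rich in cells with active G2 and mitotic genes, while an untreated 2N sort is mainly in G1. Genes for the G1/S transition are driven by E2F factors and genes for mitosis by the MuvB complex, and both programmes are shut down when p21, encoded by CDKN1A, keeps the retinoblastoma family active. Setting the drug-made 4N cells against the 2N sort lessens the share of G2 and mitotic cells in the control, but drug and DNA content differ together in this contrast and cannot be told apart within it. The samples are bulk RNA, so fewer cells of a kind and less RNA per cell cannot be told apart either.

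The 6 libraries had implied sizes of 51135091 to 78293652 reads, and tested genes with a known span held a median of 1655 reads per library. Along the main axis of variation of all 18 libraries (67.1% of the variance) the cytochalasin D 4N libraries lay between 31.95 and 33.35 and the untreated 2N libraries between -36.89 and -30.44. Cytochalasin D 4N replicate 1 stood apart from its group, with a root mean square distance of 0.292 log2 units to the other 2 libraries against 0.198 and 0.203 for those, and untreated 2N replicate 3 stood at 0.241 against 0.180 and 0.167. Where a list median or count of rising or falling genes moves by more than 1.5 times without this pair, that value is given too. Values of single genes without the pair are not given and can move by more. Deviations from the group mean in cytochalasin D 4N replicate 1 correlated with those of untreated 2N replicates 1 and 2 (0.319 and 0.174). In cytochalasin D 4N replicates 2 and 3 they correlated with untreated 2N replicate 3 (0.263 and 0.264). Libraries kept without the pair thus lie on opposite sides of this split, which mixes with the group difference. Markers of differentiated retinal pigment epithelium were nearly absent: RPE65, the visual cycle isomerase, was between 0.00154 and 0.0138 RPKM in the 6 libraries, and DCT, a pigment enzyme, was at 0 in 4 of them. The 16 of 17 listed markers with an identifier summed to 139.1 to 149.8 RPKM in untreated 2N and 152.3 to 190.3 RPKM in cytochalasin D 4N libraries, nearly all of it from BEST1, whose span overlaps the ferritin gene FTH1, and from the keratins KRT18 and KRT8. Of 15 blood cell markers, CD68, a lysosomal protein made by many cells, and CSF1R passed the level filter, and PTPRC, the pan-leukocyte CD45, stayed between 0.00137 and 0.00463 RPKM. Of the 147 genes named by rule, 60 overlap exons of another tested gene (GENCODE 29), whose reads cannot be set apart without strand. Only some of these overlaps are named with the gene. In cytochalasin D 4N against untreated 2N cells, AL136131.3 over VEGFA was at 262.1 against 90.24 RPKM. AL662797.1 over TUBB was at 148.8 against 840.3 RPKM and AC025423.2 over MDM2 at 33.43 against 13.97 RPKM. The protein-coding AC092143.1 over TUBB3 was at 6.653 against 17.83 RPKM, and AC012640.4 over CCT5 at 7.201 against 22.27 RPKM. The summed blood markers were 20.04 to 22.25 RPKM in untreated 2N and 29.75 to 41.11 RPKM in cytochalasin D 4N libraries, mostly CD68, and their part in the results was not tested.

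In cytochalasin D 4N cells 3443 genes were higher than in untreated 2N cells (26.4% of those tested) and 5243 were lower (40.2%), by limma on log2(RPKM + 0.5) with a Benjamini-Hochberg (BH) adjusted p under 0.05. With 66.6% of all tested genes past the threshold, the passing of a given gene says little, and sizes are given throughout. A change of 2-fold or more was reached by 422 of the higher genes (3.24%) and 858 of the lower genes (6.58%), 9.82% together, one of 4-fold or more by 23 and 91, and one of 8-fold or more by 2 and 12. The median of all genes was -0.08 on the log2 scale. With libraries brought to a common median ratio, 4343 genes were higher and 4339 lower, and under quantile normalization 4290 and 4213, so the excess of lower over higher genes depended on the deposited scaling. RPKM is a share of each library's reads and holds no measure of RNA per cell.

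**Figure D1:**
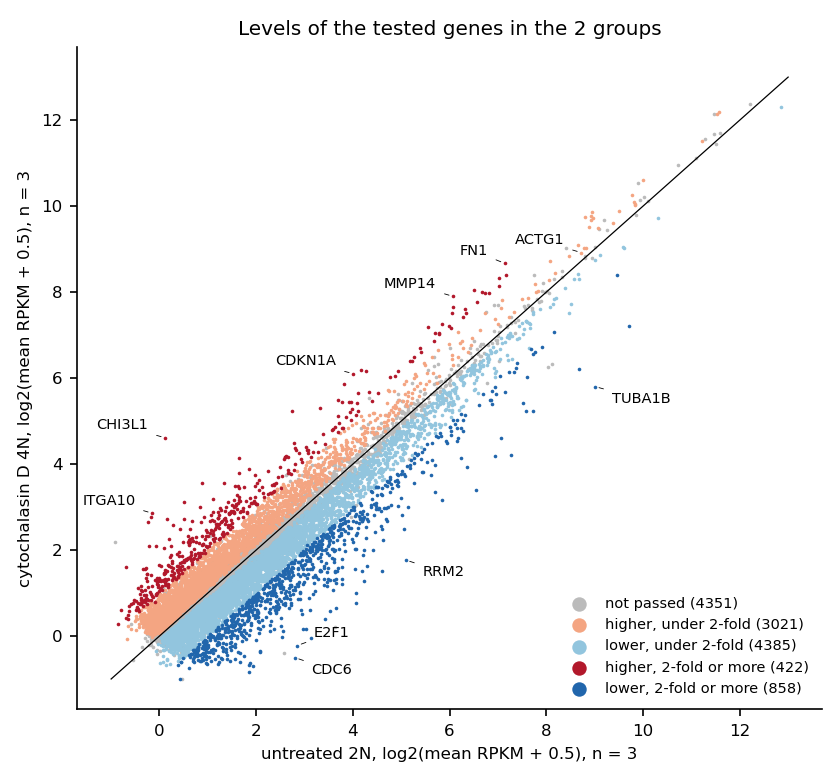
Each point is 1 of the 13037 tested genes, with its mean level in untreated 2N cells on the x axis and in cytochalasin D 4N cells on the y axis, both as log2(mean RPKM + 0.5) over 3 libraries; the line marks equal levels. The 858 genes lower by 2-fold or more lie below the line, and CHI3L1 lies farthest above it.

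The largest rise was that of CHI3L1, a secreted glycoprotein of the chitinase-like family. Its level was 18.4, 26.1 and 27.3 RPKM in the cytochalasin D 4N libraries and 0.701, 0.658 and 0.392 RPKM in the untreated 2N libraries, a log2 change of 4.48 (SE 0.34, limma BH-adjusted p = 3.3e-08). The 2 groups were far apart, and the ratio of the mean levels was 40.9. ITGA10, a collagen-binding integrin subunit, stood at 6.63, 6.79 and 6.83 RPKM against 0.391, 0.352 and 0.454 RPKM, a log2 change of 3.01 (SE 0.10, BH-adjusted p = 1.63e-11). An antisense gene over ITGA10, AC243547.1, was at 6.27 against 0.381 RPKM. SCG2, a secretory granule protein, rose by 2.78 on the log2 scale, with 9.38 RPKM in replicate 1 and 3.94 and 4.04 RPKM in the others against 0.280 to 0.390 RPKM in untreated cells. Among the 12 largest rises of protein-coding genes under the naming rule, which leaves out some symbols, were DDIT4L, an inhibitor of mTOR signalling (2.65), ZNF467, a zinc finger factor (2.30), YPEL3, a p53-inducible growth inhibitor (2.24), CA11, a carbonic anhydrase-related protein (2.23), SOD3, the extracellular superoxide dismutase (2.06), CALCOCO1, an autophagy receptor (2.06), CDKN1A (2.04) and RRAD, a small GTPase of the RGK family (2.03). The remaining gene of the 12, IFITM10 (2.18), shares its span with the protein-coding AC068580.4, which was at 254.9 RPKM against 101.4 RPKM, and the library kit did not mark strand, so its reads cannot be told from those of its neighbour.

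The 12 largest falls under the same naming rule were led by genes of DNA replication. RRM2, the small subunit of ribonucleotide reductase, which makes the deoxynucleotides for S phase, was at 2.86, 2.87 and 2.99 RPKM in cytochalasin D 4N cells and at 33.6, 37.2 and 30 RPKM in untreated 2N cells, and fell by 3.32 on the log2 scale (SE 0.20, limma BH-adjusted p = 3.94e-09). CDC6, which loads the MCM helicase on origins, was at 0.251, 0.195 and 0.173 RPKM against 6.16, 6.33 and 6.90 RPKM. This fall of 3.30 on the log2 scale rested on 157 to 264 reads per library in the drug-treated cells and 5508 to 8208 in untreated cells, and the ratio of the means was 0.0319. E2F1, the activator of the G1/S programme, was at 0.351, 0.345 and 0.377 RPKM against 6.26, 6.62 and 7.25 RPKM and fell by 3.07 (SE 0.07, BH-adjusted p = 5.93e-13). TUBA1B, the main alpha-tubulin, was at 60.4, 53.6 and 51.9 RPKM against 511.3, 508.9 and 519.9 RPKM and fell by 3.21 (SE 0.23, BH-adjusted p = 2.37e-08), along with AC011603.2 on its other strand (9.96 against 92.4 RPKM). None of these groups overlapped, as was so for 42.2% of all tested genes in the lower direction. The other falls among the 12 were TCF19 (by 3.19), a G1/S-regulated factor, FEN1 (by 3.08), the flap endonuclease of lagging-strand synthesis, the helicase subunits MCM4 (by 3.08), MCM3 (by 3.00), MCM5 (by 2.86) and MCM2 (by 2.81), PKMYT1 (by 2.95), a kinase that inhibits CDK1, and PAQR4 (by 2.94), a membrane protein. The spans of PKMYT1 and PAQR4 overlap, so this pair may not be independent, and FEN1 overlaps FADS2 and TMEM258, which were at 6.37 and 2.48 RPKM in untreated cells, far below the 23.8 RPKM of FEN1.

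**Figure D2:**
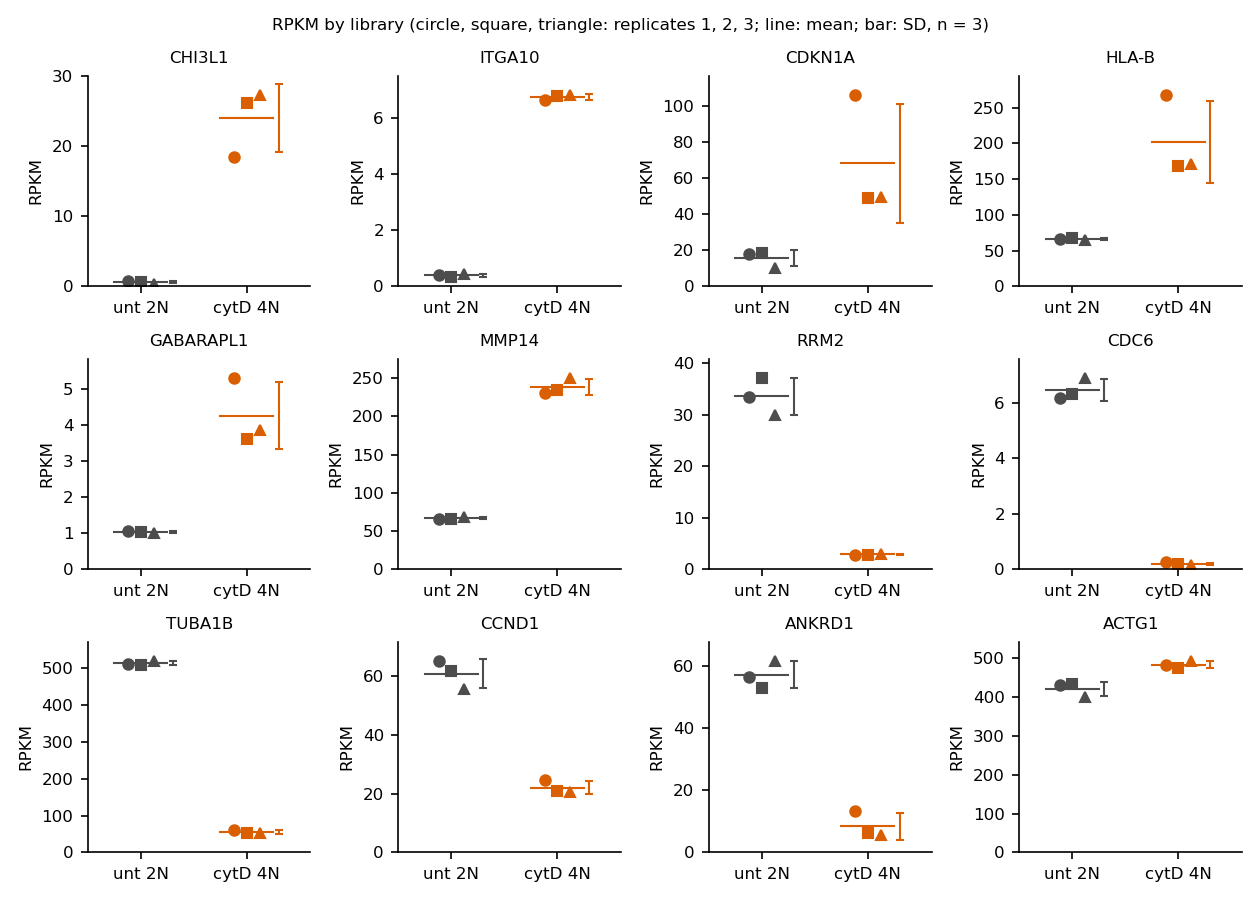
RPKM of 12 genes in each of the 3 untreated 2N and 3 cytochalasin D 4N libraries (symbols mark replicates 1 to 3, lines the mean, bars the SD), each panel with its own axis from 0. The groups do not overlap in any of the 12 panels, and for CDKN1A, HLA-B and GABARAPL1 replicate 1 of the drug-treated cells lies above the other 2.

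Sequences near the starts of these genes are shown because the falling programmes are each tied to a short element. Reference stretches of 60 bases come from RefSeq promoters (GRCh38.p14, 250 bases before to 50 after the gene start), in which both strands were searched; capitals mark the element on either strand. For E2F the letters searched were TTTCCCGC, TTTCGCGC, TTTGCCGC and TTTGGCGC, and for the cell cycle genes homology region (CHR), through which MuvB complexes bind, TTTGAA. E2F1 (chr20:33686386-33686445, minus strand) and MCM3 (chr6:52284883-52284942, minus strand) hold E2F letters, and CDK1 (chr10:60778143-60778202, plus strand) and TOP2A (chr17:40418015-40418074, minus strand) hold CHR letters.
E2F1: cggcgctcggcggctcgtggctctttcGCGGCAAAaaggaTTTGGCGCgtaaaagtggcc
MCM3: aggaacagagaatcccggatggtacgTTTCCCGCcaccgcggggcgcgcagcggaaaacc
CDK1: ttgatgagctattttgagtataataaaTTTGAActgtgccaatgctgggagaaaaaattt
TOP2A: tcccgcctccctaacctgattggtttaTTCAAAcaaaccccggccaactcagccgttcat
Of the 7749 protein-coding genes tested under a symbol, 6227 matched a promoter. E2F letters were in 13 of 29 matched G1/S and replication genes (44.8%) and CHR letters in 35 of 48 matched G2/M genes (72.9%). In the 250 bases before the start, RRM2, CDC6, TCF19, FEN1, MCM2 and UNG had no E2F letters and CCNB1, CCNA2 and KIF20A no CHR letters. This says only that the letters are not in those bases. The shares cover the whole window, so these genes may still be counted in them. The shares among all 27305 promoters of the table were 3.33% and 15.4%, and among the 6227 they were 5.72% and 8.72%. Among the 432 matched genes that fell by 2-fold or more, 10.4% held E2F letters and 20.6% CHR letters. Among the 193 that rose by 2-fold or more the shares were 2.07% and 10.4%. A match is a description of letters and shows no binding.

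All 36 tested genes of the G1/S and DNA replication list were lower, 35 of them by 2-fold or more, with a list median of -1.94 against -0.08 for all genes. Apart from those above, CCNE2, the cyclin E2 that drives entry into S phase, was at 0.195, 0.184 and 0.186 RPKM against 2.31, 2.42 and 2.65 RPKM and fell by 2.10. UNG, the uracil-DNA glycosylase that cleans newly made DNA, was at 1.16, 1.16 and 1.18 RPKM against 5.13, 5.16 and 5.77 RPKM and fell by 1.81. FAM111B, a protease gene with S-phase expression, was at 0.0951, 0.0452 and 0.0389 RPKM against 2.89, 3.10 and 3.35 RPKM, with 42 to 119 reads per library behind the lower group, and fell by 2.69. CDCA7, a chromatin remodelling cofactor, fell by 2.62. In homologous recombination and the Fanconi pathway, which repair broken and crosslinked DNA, 5 of 18 listed genes passed the level filter and all 5 fell, among them FANCG (by 2.04), FANCI (by 1.48) and RAD51AP1 (by 1.35). When library-scaled reads not divided by gene length were used (RPM), which keeps long genes, all 18 were tested and all 18 fell, with a median of -2.65.

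Of 57 tested G2/M and mitosis genes, 54 were lower and 43 by 2-fold or more, with a list median of -1.35. CCNB1, the cyclin that activates CDK1 at mitosis, was at 2.02, 1.92 and 2.07 RPKM against 11.0, 10.7 and 8.71 RPKM and fell by 2.08 (SE 0.23, limma BH-adjusted p = 1.47e-06). MKI67, the coat protein of mitotic chromosomes used as a proliferation marker, was at 2.62, 2.82 and 2.20 RPKM against 15.6, 15.3 and 8.92 RPKM and fell by 2.14. Untreated 2N replicate 3 was the lowest of its group for both genes and still well above every drug-treated library. The largest falls of the list were ZWINT (by 2.69), a kinetochore protein, KIF20A (by 2.42), a kinesin of cytokinesis whose span overlaps CDC23 and BRD8, and CCNA2 (by 2.28), cyclin A2. The members that did not pass were CDC25B, CENPA and PIF1, named after their values were seen. In the nuclear lamina and proliferation-linked chromatin list 12 of 13 were lower (median -1.26). LMNB1, the B-type lamin of dividing cells, was at 0.196, 0.193 and 0.181 RPKM against 2.05, 2.03 and 1.74 RPKM and fell by 1.82, LMNB2 fell by 2.19, and the histone variants H2AZ1 and H2AX fell by 2.13 and 2.09. LMNA, the A-type lamin, was the member that did not pass.

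The choice of control changed the size of the mitotic fall more than that of the replication fall. Untreated 4N cells differed from untreated 2N cells in 1679 genes that were higher (12.9%) and 593 that were lower (4.55%), and 55 of the 57 G2/M genes were among the higher, with a list median of 1.33. Of the 36 G1/S genes 3 were among the higher and 15 among the lower. Against untreated 4N cells, 3398 genes were higher in cytochalasin D 4N cells (26.1%) and 5793 lower (44.4%), and the same cytochalasin D libraries gave a G2/M median of -2.79 and a G1/S median of -1.84. The 2 contrasts share the cytochalasin D 4N libraries, so their values are given side by side only. UBE2C, which passes ubiquitin to targets of the anaphase-promoting complex, was at 3.19, 2.80 and 2.98 RPKM against 6.66, 7.28 and 3.45 RPKM in untreated 2N cells, a fall of 0.79 (BH-adjusted p = 0.0201), and its fall was 3.78 against untreated 4N cells. CDK1, the mitotic kinase, fell by 0.92 and by 3.28, TOP2A, the topoisomerase that untangles chromosomes, by 1.095 and 3.50, and CDCA8, a subunit of the chromosomal passenger complex, by 1.35 and 3.38. FAM83D had -0.62 and -2.87, HJURP -0.67 and -2.86, TROAP -0.76 and -2.92 and CCNF -0.33 and -2.38, all lower by less against the 2N control; they act in spindle positioning, centromere assembly, spindle formation and ubiquitin transfer. These 8 genes, UBE2C to CCNF, were chosen by the naming rule for a large excess in untreated 4N over 2N cells, so the order of their values is fixed by that choice. Some replication genes had the opposite order: UNG fell by 1.81 against untreated 2N and had -0.06 against untreated 4N cells, E2F1 fell by 3.07 and 2.26, CCNE2 by 2.10 and 0.69, and CDC6 by 3.30 and 2.36. For CCNE2 and CDC6, as for FAM111B, CDCA7, ANKRD1, BMF, CCL2 and the transmembrane protein TMEM200B (falls of 1.44 and 0.49), the order is again fixed, since they were chosen for the largest deficit in untreated 4N cells. RRM2 fell by 3.32 against 2N and 3.97 against 4N cells and TCF19 by 3.19 and 3.56, the order of the mitotic genes.

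**Figure D3:**
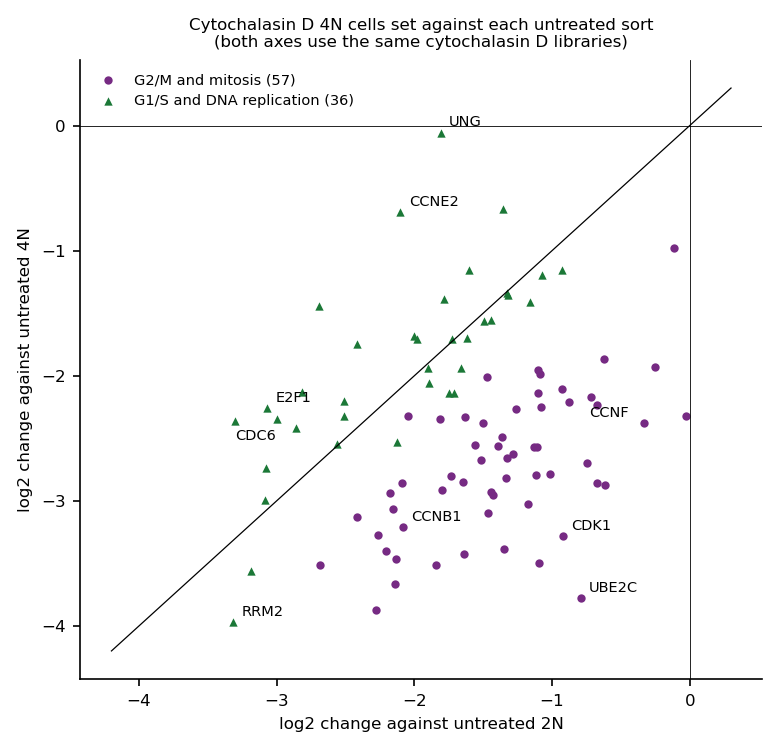
Log2 change of the 57 G2/M genes (circles) and 36 G1/S genes (triangles) in cytochalasin D 4N cells against untreated 2N cells (x axis) and against untreated 4N cells (y axis); the diagonal marks equal changes. The G2/M genes lie below the diagonal, with UBE2C at -0.79 and -3.78, while UNG and CCNE2 lie well above it.

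Across all tested genes, 2930 were higher and 4909 lower against both untreated sorts. Another 477 were higher and 321 lower against the 2N sort without passing against the 4N sort, 455 were higher and 848 lower against the 4N sort without passing against the 2N sort, and 3048 passed against neither. The 2 controls gave opposite calls to some genes, 36 of them higher against 2N and lower against 4N cells and 13 the reverse. FZR1, which encodes the CDH1 activator of the anaphase-promoting complex in G1, was at 1.40, 1.45 and 1.39 RPKM against 1.18, 1.24 and 1.18 RPKM in untreated 2N cells, a log2 change of 0.17 (limma BH-adjusted p = 0.00269), and it fell by 1.22 against untreated 4N cells. UBALD2 (0.48 and -0.83) and EPOR (0.45 and -0.67), the erythropoietin receptor, had the same order, and H2AC11, a histone H2A gene (-0.29 and 0.48), and TRMT2A, a tRNA methyltransferase (-0.17 and 0.29), the reverse. These 5 genes were chosen after their values were seen. CDKN2D, the p19 inhibitor of CDK4 and CDK6, had overlapping levels of 2.98, 2.74 and 2.82 RPKM against 2.47, 2.84 and 1.77 RPKM (log2 change 0.24, BH-adjusted p = 0.0669), but fell by 1.54 against untreated 4N cells. Against untreated 2N cells CDKN2D passed as higher in 4 of 16 other settings (limma BH-adjusted p 0.00857 to 0.0478).

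Among 12 tested G1 cyclins, CDKs and their inhibitors 6 rose and 5 fell, with a median of 0.27 that changed sign with the choice of genes tested. Of all tested genes 26.4% rose and 40.2% fell, so the falling share of the list was close to that of all genes. CDKN1A, the p21 inhibitor of cyclin-CDK complexes, was at 106.3, 49.0 and 49.4 RPKM against 17.8, 18.4 and 10.5 RPKM, a log2 change of 2.04 (SE 0.55, limma BH-adjusted p = 0.00421). Replicate 1 was the highest drug-treated library, and the other 2 were still more than 2-fold above each untreated library. CDKN1C, the related p57 inhibitor, rose by 1.53 from 0.213 to 0.256 RPKM in untreated cells, where it held 34 to 49 reads per library, to 1.18, 1.96 and 1.84 RPKM. CDKN2B, the p15 inhibitor, rose by 0.91, and CDKN2C, the p18 inhibitor, fell by 0.59. CCND1, the cyclin D1 that relays growth signals to CDK4, was at 24.6, 20.9 and 20.5 RPKM against 65.2, 61.6 and 55.6 RPKM and fell by 1.45 (SE 0.26, BH-adjusted p = 2.00e-04). CDK2 fell by 2.53 and CDK4 by 0.69, but CDK2 overlaps the pigment gene PMEL and CDK4 overlaps TSPAN31, so part of their reads may belong to the neighbour. Without cytochalasin D 4N replicate 1 and untreated 2N replicate 3, 4 of the 12 rose and 5 fell, with a median of 0.17. In that fit 3335 of all 13037 tested genes rose and 4911 fell.

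Of 25 tested p53 targets 14 rose (56.0%, against 26.4% of all tested genes) and none fell. Of the rises 8 were by 2-fold or more, and the list median was 0.64. Without the pair of libraries that stood apart 9 of the 25 rose, beside 3335 of all 13037 tested genes. BTG2, an antiproliferative cofactor, was at 9.48, 4.88 and 4.67 RPKM against 1.86, 1.54 and 0.797 RPKM (log2 change 1.83, SE 0.41). TP53INP1, a p53 cofactor with a role in autophagy, was tighter, at 3.42, 2.91 and 2.97 RPKM against 0.609, 0.634 and 0.730 RPKM (1.64, SE 0.11, BH-adjusted p = 1.22e-08). MDM2, the ubiquitin ligase that p53 induces against itself, was at 5.65, 3.35 and 3.43 RPKM against 1.775, 1.804 and 1.491 RPKM, and its log2 change of 1.05 (SE 0.38, BH-adjusted p = 0.0251) lost the call in 4 of 16 other settings, with adjusted p of 0.0575 to 0.182. Several p53 targets in the list, such as BAX, FAS and GADD45A, did not pass (named after their values were seen). In the list of FOXO targets and brakes on PI3K and mTOR signalling 13 of 14 rose, 7 by 2-fold or more, with a median of 0.98. DDIT4, which restrains mTORC1, was at 44.8, 64.2 and 62.6 RPKM against 13.8, 14.6 and 12.3 RPKM (2.02, SE 0.26, BH-adjusted p = 7.26e-06), its paralogue DDIT4L was at 8.425, 12.19 and 12.97 RPKM against 1.44, 1.56 and 1.03 RPKM, and YPEL3 at 10.6, 11.1 and 12.2 RPKM against 1.70, 1.77 and 2.61 RPKM. BMF, a pro-apoptotic BH3 protein, rose by 1.88. DDIT4 and BMF each overlap an antisense gene that moved the same way (DDIT4-AS1 at 72.9 against 17.4 RPKM, BMF-AS1 at 39.2 against 9.53 RPKM), and these reads cannot be separated without strand.

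**Figure D4:**
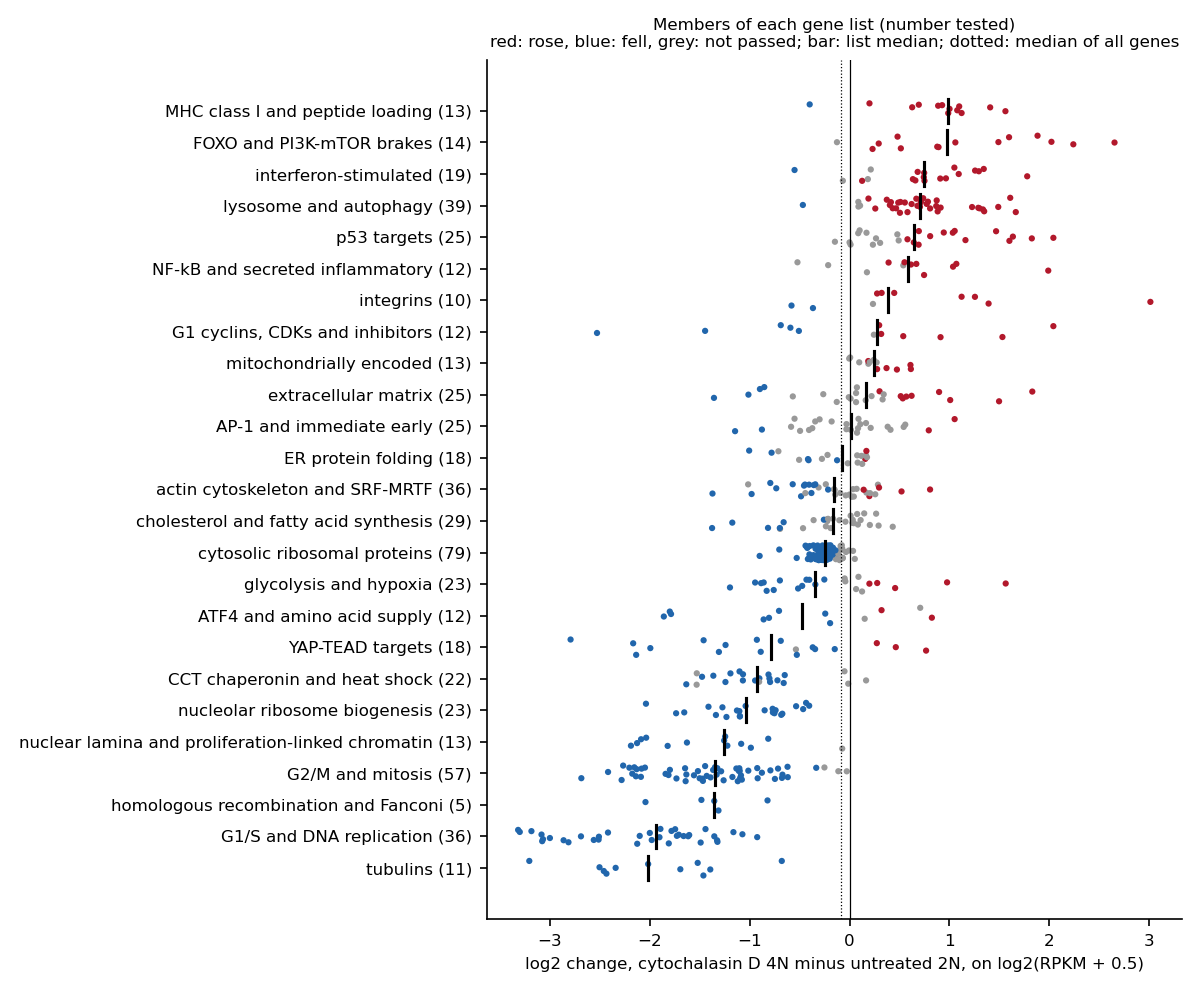
Log2 change between cytochalasin D 4N and untreated 2N cells on log2(RPKM + 0.5) for each tested member of 25 gene lists, with the number tested in brackets; red points rose, blue points fell and grey points did not pass, the bar is the list median and the dotted line the median of all genes (-0.08). The lists run from tubulins (median -2.02) to MHC class I and peptide loading (median 0.99).

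Genes of the actin cytoskeleton, the structure that cytochalasin D binds, moved in both directions and mostly by small amounts. Of 36 tested actin and SRF-MRTF genes, the set that the serum response factor controls according to the pool of free actin, 5 rose and 13 fell, 1 of them by 2-fold or more, with a median of -0.15. These shares, 13.9% rising and 36.1% falling, were both below those of all tested genes (26.4% and 40.2%). Without the pair of libraries that stood apart 2 rose and 16 fell (median -0.25), and with libraries at a common median ratio 8 rose and 9 fell. The 2 cytoplasmic actins moved in opposite directions: ACTB was at 126.4, 126.2 and 135.5 RPKM against 189.1, 190.0 and 165.6 RPKM and fell by 0.49 (SE 0.10, limma BH-adjusted p = 6.02e-04), and ACTG1 was at 481.3, 474.6 and 493.5 RPKM against 431.3, 432.2 and 400.1 RPKM and rose by 0.20 (SE 0.06, BH-adjusted p = 0.0141). The ACTG1 call was lost in 4 of 16 other settings (adjusted p 0.0605 to 0.0910). TPM3, a tropomyosin, fell by 1.37 and PFN1, the monomer-binding profilin, by 0.79, while GSN, the severing protein gelsolin, rose by 0.81 and PDLIM5 and PDLIM7, scaffold proteins of actin fibres, by 0.52 and 0.30; the PDLIM7 call was lost in 5 of 16 settings (adjusted p 0.0600 to 0.234). The canonical SRF targets ACTA2, TAGLN, VCL and SRF itself did not pass (named after their values were seen). Their log2 changes were -0.44, -1.02, 0.035 and -0.16. TAGLN was at 100.4, 38.1 and 38.2 RPKM against 130.8, 116.1 and 80.9 RPKM. ACTA2 was at 3.17, 0.951 and 0.967 RPKM against 3.44, 2.97 and 0.934 RPKM. For both genes the groups overlapped through cytochalasin D 4N replicate 1 and untreated 2N replicate 3, so a miss does not show that they held still.

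Targets of YAP and TEAD, which respond to tension and cell spreading, were lower more often, 14 of 18 falling (7 by 2-fold or more) and 3 rising, with a median of -0.79. ANKRD1 was at 13.4, 6.31 and 5.52 RPKM against 56.48, 52.97 and 61.60 RPKM and fell by 2.79 (SE 0.37, limma BH-adjusted p = 1.03e-05). CCN2, a matricellular growth factor also known as CTGF, was at 72.32, 32.07 and 29.01 RPKM against 117.6, 123.7 and 99.1 RPKM and fell by 1.46 (SE 0.44, BH-adjusted p = 0.00883), and CCN1, or CYR61, was at 113.6, 50.6 and 46.9 RPKM against 155.3, 162.8 and 164.3 RPKM and fell by 1.31. In all 3 genes replicate 1 of the drug-treated cells lay above the other 2 and nearer to, though below, the untreated libraries. FJX1 fell by 2.17 and F3, the tissue factor of coagulation, by 2.14. The 3 members that rose were ARHGEF17, a guanine nucleotide exchange factor (0.77), NT5E, the ectonucleotidase CD73 (0.46), and AMOTL1, a YAP-binding protein (0.27).

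Tubulins formed the list with the lowest median (-2.02): all 11 fell, 10 by 2-fold or more. Beside TUBA1B, TUBB4B was at 38.1, 37.8 and 34.9 RPKM against 210.6, 215.0 and 209.0 RPKM and fell by 2.50 (SE 0.12, limma BH-adjusted p = 4.78e-10), and TUBB was at 79.8, 71.0 and 69.7 RPKM against 420.6, 415.4 and 383.3 RPKM and fell by 2.46. TUBB3, the beta-tubulin of neurons, fell by 1.39. The chaperonin CCT, which folds tubulin and actin, and the heat shock proteins moved in the same direction, with 16 of 22 lower (8 by 2-fold or more, median -0.93) and none higher. CCT5, a subunit of CCT, was at 5.77, 5.67 and 6.19 RPKM against 19.9, 19.6 and 18.4 RPKM and fell by 1.64. HSPD1 and HSPE1, the chaperonin pair of mitochondria, fell by 1.48 and 1.36, and their spans overlap each other. The stress-inducible HSPA1A, HSPA1B, HSPB1 and DNAJB1 did not pass (named after their values were seen). HSPA1A was at 157.7, 33.4 and 35.4 RPKM against 401.2, 353.3 and 32.2 RPKM (log2 change -1.53, BH-adjusted p = 0.24), so untreated 2N replicate 3 lay with the drug-treated libraries and the groups overlapped. Without the pair of libraries that stood apart 19 of the 22 fell, and 19 with the replicate block.

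Genes for ribosome production were lower, both those of the nucleolus and those of the ribosome itself. All 23 tested nucleolar ribosome biogenesis genes fell, 12 by 2-fold or more, with a median of -1.04. NOLC1, a nucleolar phosphoprotein, was at 5.39, 4.57 and 4.59 RPKM against 22.2, 21.3 and 20.8 RPKM and fell by 2.04, DKC1, the pseudouridine synthase, by 1.74, and NOP56, a core protein of box C/D particles that also hosts snoRNAs, by 1.65. Of 79 cytosolic ribosomal protein genes 62 fell and none rose, none by 2-fold, with a median of -0.25 against -0.08 for all genes. Here the scaling mattered: with libraries at a common median ratio 43 fell and 2 rose (median -0.13), and under quantile normalization 29 fell and 6 rose (median -0.09). RPS26 (by 0.90), RPL35 (by 0.70) and RPSA (by 0.53) had the largest falls. MYC, which drives ribosome production, was at 13.9, 7.16 and 7.52 RPKM against 19.6, 17.5 and 14.7 RPKM and fell by 0.88 (BH-adjusted p = 0.0143), a call lost in 3 of 16 other settings. In the list of ATF4 targets and amino acid supply 8 of 12 fell and 2 rose (median -0.47): the transporter SLC7A5 fell by 1.86, the folate enzyme MTHFD2 by 1.8 and the serine synthesis enzyme PSAT1 by 1.79, while the factor CEBPB rose by 0.82 and the pseudokinase TRIB3 by 0.32; 1 rose without the pair of libraries that stood apart.

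Genes of antigen presentation and the interferon response were higher. Of 13 tested genes for MHC class I and peptide loading 12 rose, 6 by 2-fold or more, with the highest list median (0.99). B2M, the light chain of the complex, was at 171.5, 122.8 and 135.7 RPKM against 63.6, 65.1 and 66.1 RPKM (log2 change 1.12, SE 0.11, limma BH-adjusted p = 3.21e-07). HLA-B, a heavy chain, was at 268.2, 168.0 and 170.7 RPKM against 66.7, 67.9 and 65.2 RPKM (1.56), but its annotated span covers HLA-C, and reads shared between such close copies may be split. TAP2, a subunit of the peptide transporter, fell by 0.40. Of 19 tested interferon-stimulated genes 15 rose, 6 by 2-fold or more, and 1 fell (median 0.75). IRF9, the DNA-binding subunit of the ISGF3 complex, was at 6.71, 6.66 and 7.24 RPKM against 1.62, 1.39 and 1.97 RPKM (1.78, SE 0.13, BH-adjusted p = 2.98e-08), its partner STAT2 was at 8.14, 9.06 and 9.20 RPKM against 2.97, 2.98 and 3.56 RPKM (1.34), and IFIT1, an RNA-binding effector, was at 2.69, 1.51 and 1.57 RPKM against 0.436, 0.419 and 0.548 RPKM (1.30). GBP1 did not pass (named after its values were seen), and OAS3, a sensor of double-stranded RNA, fell by 0.55.

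Promoters of some of these genes hold the interferon-stimulated response element (ISRE), searched on both strands as GAAA, any 2 bases and GAAA and shown for the light chain and for an effector, with the element in capitals: B2M (chr15:44711354-44711413, plus strand) and IFIT1 (chr10:89392495-89392554, plus strand), from RefSeq on GRCh38.p14.
B2M: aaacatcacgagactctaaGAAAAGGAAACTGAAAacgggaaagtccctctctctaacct
IFIT1: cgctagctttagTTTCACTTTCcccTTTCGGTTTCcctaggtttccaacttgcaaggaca
In B2M the capitals cover 2 overlapping matches. ISRE letters were in 10 of 15 matched interferon-stimulated genes (66.7%) and 7 of 11 matched MHC class I genes (63.6%), against 3.65% of all promoters and 2.60% of those of tested protein-coding genes. In the searched bases before the gene start, HLA-B, IRF9 and STAT2 had no match, which says only that the letters are not in those bases. The shares cover the whole window, so these genes may still be counted in them. Among genes that rose by 2-fold or more the share was 6.22%, and among those that fell by 2-fold or more 2.08%.

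Of 12 tested NF-kB and secreted inflammatory genes 8 rose, 3 by 2-fold or more, and none fell (median 0.58). CSF1, the macrophage growth factor, was at 9.21, 16.3 and 17.3 RPKM against 2.97, 3.02 and 3.31 RPKM (log2 change 1.99, SE 0.21, limma BH-adjusted p = 9.43e-07). IL1B rose by 1.07 and NFKBIA, the inhibitor that NF-kB induces, by 1.04. CCL2, a monocyte chemokine, was at 24.1, 22 and 20.3 RPKM against 13.4, 13.8 and 15.6 RPKM and rose by 0.62, and by 1.91 against untreated 4N cells. CXCL8, IL6, LIF and PTGS2 were the members that did not pass. Of 25 immediate early and AP-1 genes, DUSP4 and JUND rose (1.05 and 0.79) and FOSL1 and MYC fell (by 1.15 and 0.88), with a list median of 0.01. Each share was 8.0%, below the 26.4% rising and 40.2% falling of all tested genes. Without the pair of libraries that stood apart 1 rose and 5 fell, and the median was -0.51.

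Lysosome and autophagy genes rose as a block, 35 of 39, 8 of them by 2-fold or more, with 1 lower and a median of 0.71. GABARAPL1, which coats autophagosome membranes, was at 5.32, 3.62 and 3.86 RPKM against 1.07, 1.05 and 1.01 RPKM (log2 change 1.61, SE 0.12, limma BH-adjusted p = 2.79e-08). CTSF, the protease cathepsin F, was at 8.203, 6.297 and 7.032 RPKM against 1.97, 1.84 and 1.93 RPKM (1.66), and TPP1, a tripeptidyl peptidase, at 38.8, 46.2 and 44.5 RPKM against 15.6, 15.0 and 14.4 RPKM (1.49). GLA, the alpha-galactosidase, fell by 0.47. The CLEAR letters TCACGTGA, the element read by the lysosomal regulator TFEB, were in 5 of 28 matched lysosomal promoters (17.9%) against 1.04% of all promoters and 2.34% of those of tested protein-coding genes. TPP1, CTSF and GABARAPL1 had no match in the searched bases before the gene start. The shares cover the whole window, so these genes may still be counted in them.

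At the cell surface and in the matrix, members moved both ways. MMP14, a membrane-bound collagenase, was at 230.0, 234.9 and 250.4 RPKM against 65.8, 65.9 and 68.4 RPKM (log2 change 1.83, SE 0.07, limma BH-adjusted p = 7.44e-11). FN1, fibronectin, was at 534.9, 364.8 and 319.3 RPKM against 150.9, 137.3 and 132.7 RPKM (1.497, SE 0.24), and the collagen chain COL6A1 rose by 1.01. THBS1, thrombospondin, was at 88.7, 57.4 and 51.7 RPKM against 115.8, 113.9 and 165.5 RPKM and fell by 1.01, and LOXL2, a lysyl oxidase, by 0.90. In all 9 of 25 matrix genes rose and 4 fell, with a median of 0.16, which was -0.16 without the pair of libraries that stood apart. The shares were 36.0% rising and 16.0% falling, against 26.4% and 40.2% of all tested genes. Of 10 integrin subunits 7 rose and 2 fell, with a median of 0.38 (4 and 2, with 0.21, without that pair): ITGA11 rose by 1.39 and ITGB4 by 1.26, while ITGA6 fell by 0.58 and ITGA5, the fibronectin receptor subunit, by 0.37 (BH-adjusted p = 0.0467), a call lost in 8 of 16 other settings.

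In metabolism, 13 of 23 glycolysis and hypoxia genes fell and 5 rose (median -0.34). These shares, 56.5% falling and 21.7% rising, compare with 40.2% and 26.4% of all tested genes. The glycolytic enzymes ENO1, PGAM1 and PFKP fell by 1.20, 0.95 and 0.89, while VEGFA, the vascular growth factor induced by hypoxia, was at 45.7, 52.3 and 52.3 RPKM against 15.7, 14.5 and 20.1 RPKM (log2 change 1.56, SE 0.14), NDRG1 rose by 0.98 and PKM, pyruvate kinase, by 0.46. Of 29 cholesterol and fatty acid synthesis genes 6 fell (20.7%, against 40.2% of all tested genes) and none rose (median -0.17), among them EBP (by 1.17) of the late sterol pathway and ACAT2 (by 0.82). Without the pair of libraries that stood apart 4 fell and 2 rose, with a median of 0.16. ACAT2 overlaps TCP1 and lost its call in 7 of 16 settings. Of 13 mitochondrially encoded transcripts 6 rose and none fell (median 0.24), MT-CO1 and MT-CO2, subunits of cytochrome oxidase, by 0.61 each and MT-ND6 by 0.47. In the fit without that pair 7 rose and the median was 0.42. With libraries at a common median ratio 10 rose and none fell (median 0.36), while after quantile normalization 1 rose and 2 fell (median 0.00). ER protein folding genes had 2 of 18 higher (EDEM1 0.17, DNAJC3 0.16) and 5 lower, among them SDF2L1 (by 1.00), MANF (by 0.78) and PDIA4 (by 0.42). Both shares, 11.1% higher and 27.8% lower, were below those of all tested genes. The PDIA4 call was lost in 7 of 16 settings (limma BH-adjusted p 0.0568 to 0.171) and that of SDF2L1 in 3 (0.0669 to 0.0906). The ER list median was -0.07, and -0.43 with 1 higher and 9 lower without the pair of libraries; with libraries at a common median ratio 5 were higher and 2 lower.

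The same untreated 2N libraries were set against cytochalasin D 2N cells, which gave 3539 higher (27.1%) and 5149 lower (39.5%) genes, close in number to the 4N contrast. List medians in that contrast were -1.71 for G2/M, -2.03 for G1/S, -2.05 for tubulins, 0.73 for lysosome and 1.09 for MHC class I genes. Between cytochalasin D 4N and 2N cells no gene passed in limma (0.0% higher, 0.0% lower) at a lowest BH-adjusted p of 0.176, and 682 had an unadjusted p under 0.05. The count was 13 without the level filter and 1 when these 2 groups were fitted alone. With the 2N and 4N libraries of the same treatment and number as a block, a fit chosen after seeing the data, 3 genes passed (1 higher, 2 lower) and 1411 had an unadjusted p under 0.05; among the 3 were PCNA, the clamp of replicating polymerases (0.44, BH-adjusted p = 0.0498), and CCDC80, a matrix protein (-0.32, 0.0498). CHI3L1 had 4.48 in 4N and 4.80 in 2N cells after cytochalasin D, CDKN1A 2.04 and 1.65, and CDK1 -0.92 and -1.68, each against untreated 2N cells. A p that misses the threshold does not show that the 2 sorts were alike.

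Cells with a 4N content made by ZM447439 differed from untreated 2N cells in 2342 higher (18.0%) and 3564 lower (27.3%) genes, and directly from cytochalasin D 4N cells in 2050 genes higher after cytochalasin D (15.7%) and 3622 lower (27.8%). Proliferation genes were lower after both drugs, by more after cytochalasin D: list medians against untreated 2N cells were -1.94 after cytochalasin D and -1.26 after ZM447439 for G1/S genes, -1.35 and -0.71 for G2/M genes, and -2.02 and -0.92 for tubulins. In the direct comparison all 36 G1/S genes, 50 of 57 G2/M genes and all 11 tubulins were lower after cytochalasin D. RRM2 fell by 3.32 after cytochalasin D and 1.55 after ZM447439, and TUBA1B by 3.21 and 1.08. The p53 targets had medians of 0.64 and 0.73, and in the direct comparison none was higher and 1 was lower after cytochalasin D, with CDKN1A at 2.04 and 2.23 and a difference between the drugs at an adjusted p of 0.804.

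Other lists differed in the direct comparison. Of the MHC class I genes 12 of 13 were higher after cytochalasin D than after ZM447439 (medians 0.99 and 0.23 against untreated 2N cells), of the interferon-stimulated genes 15 of 19 (0.75 and 0.11), and of the lysosomal genes 20 of 39, with 1 lower (0.71 and 0.36). CHI3L1 had 4.48 and 0.91, ITGA10 3.01 and 0.61, and FN1 1.497 and 0.20. Of the YAP-TEAD targets 10 of 18 were lower and 3 higher after cytochalasin D (medians -0.79 and -0.11), and ANKRD1 had -2.79 after cytochalasin D and -0.07 after ZM447439. SLC7A5 had -1.86 after cytochalasin D and -0.13 after ZM447439. The doses and times of the 2 drugs cannot be matched from the labels.

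**Figure D5:**
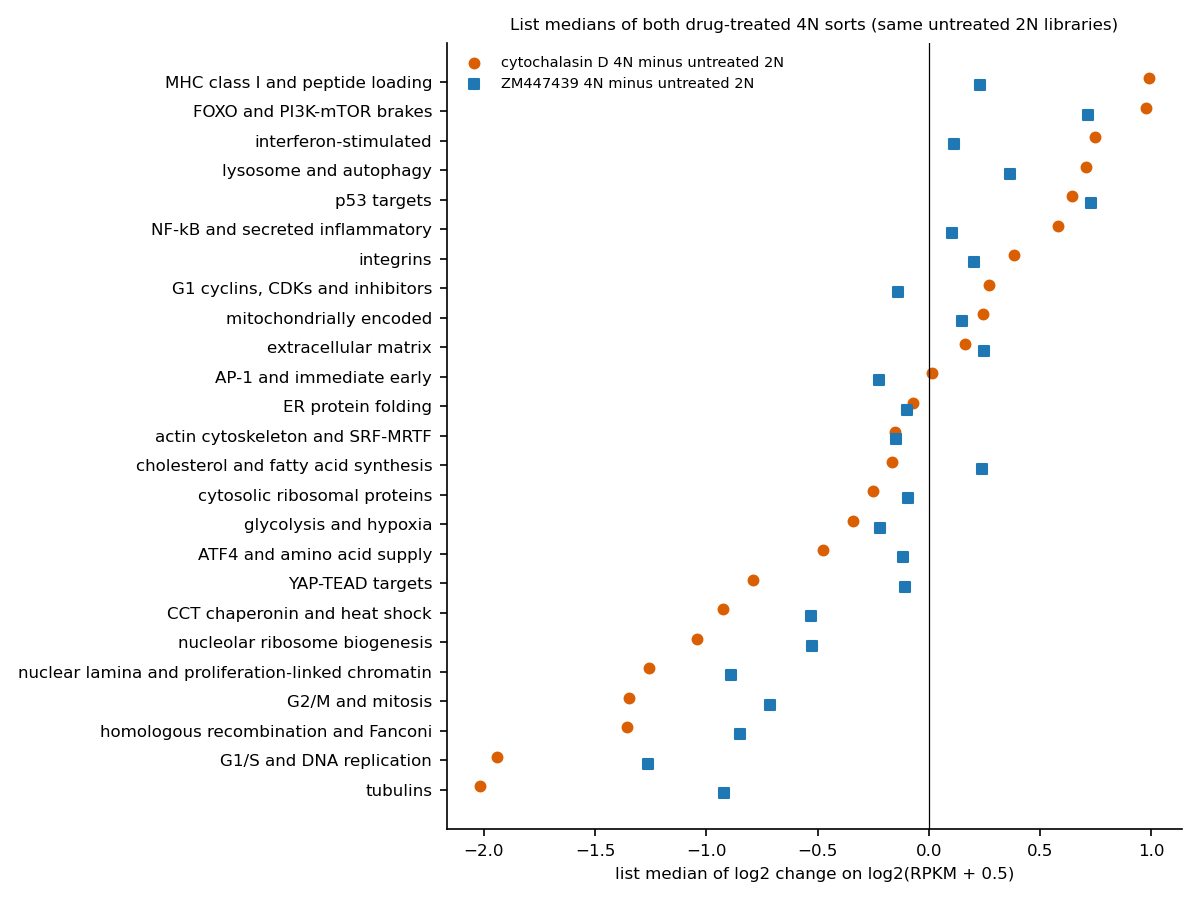
List medians of log2 change against the same untreated 2N libraries for cytochalasin D 4N cells (circles) and ZM447439 4N cells (squares), on log2(RPKM + 0.5), for 25 lists. The p53 targets have medians of 0.64 and 0.73, while MHC class I genes (0.99 and 0.23) and YAP-TEAD targets (-0.79 and -0.11) lie apart.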

How the data were processed

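Polyadenylated RNA was sequenced without strand marking from 3 replicates of each of 6 groups, which the series design calls biological; p-values measure the spread between these libraries. The authors deposited RPKM for 57773 Ensembl identifiers; per the submitters' processing notes the tools included CASAVA 1.8.2, TopHat2 and edgeR with hg19, and their order, settings and read counter are not given in the sources used here. In low values (under 200 reads) of the 6 libraries, 89.1% to 89.6% came out as whole reads within 0.05 when multiplied by the genomic span, introns included, and 11.8% to 12.5% with exon length, so values were read as reads over the whole span; long genes therefore have low RPKM, and levels should be compared between genes with that in mind. Implied reads summed to 0.988 to 1.05 times the implied size. Symbols were found for 90.6% of identifiers.

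From the deposited values, log2(RPKM + 0.5) was fitted with limma 3.58.1 in R 4.3.3, with a mean per group over all 18 libraries (12 residual degrees of freedom), a trend on the mean level, two-sided tests and BH adjustment over 13037 genes at 0.05. "Rose" and "fell" denote passing genes; fold changes are on this log2 scale and understate changes of low genes. Errors are SE from limma. The fit was tested on simulated data. Of 18472 protein-coding genes with any value, 7750 were tested; of 12135 with a known span, 13.6% averaged fewer than 100 reads. The comparison, its gene lists and the rules below were chosen with earlier results of these data known. Named genes are the 12 largest rises and falls among protein-coding genes whose libraries do not overlap, the 3 largest in each direction per list, a fixed set of names, and the 8 in each direction with the largest difference between the untreated sorts. The rankings of 12 and 8 leave out symbols with the form of antisense, pseudogene or read-through names. Any symbol ending in P and digits is left out with them, so protein-coding genes such as MMP14 and IGFBP3 could not enter. Lists are described by counts and medians, without a test. Alternatives were other pseudocounts, filters and scalings, RPM, a replicate block, own libraries only, and leaving out libraries. Within a treatment, deviations of the 2N and 4N libraries with the same number correlated in every pair. The values were 0.194, 0.192 and 0.450 for untreated cells and 0.632, 0.325 and 0.405 with cytochalasin D. Some unlike numbers correlated more: untreated 4N replicate 1 with 2N replicate 2 (0.22) and 4N replicate 2 with 2N replicate 1 (0.258). With cytochalasin D, 4N replicate 2 did so with 2N replicate 3 (0.385). The data therefore do not settle the pairing. A block that takes the same numbers as pairs (6 residual degrees of freedom) was added for the 4N against 2N comparisons. Some genes that this rule names are not reported here.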

Additional observations from a re-analysis of the deposited data

Results flagged for a closer look

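ACTG1, cytoplasmic gamma-actin, was marked because its difference from untreated 2N cells had opposite signs after the 2 drugs: it was 0.20 on the log2 scale in cytochalasin D 4N cells and -0.35 in ZM447439 4N cells. The direct comparison of the drug-treated 4N cells gave a difference of 0.55, higher after cytochalasin D. Both values use the same untreated 2N libraries.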

How the results depend on the processing

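The number of genes higher in cytochalasin D 4N than in untreated 2N cells was 3443, 7486 without the level filter and 5843 on RPM, and 3049 to 3409 on leaving out each library; the number lower was 5243, and 4867 to 5128. Untreated 4N against 2N cells gave 2272 genes, 3652 without the filter, 3973 on RPM and 1624 to 2373 with a library left out. Cytochalasin D 4N against 2N cells gave 0, 13 without the filter, 1 with own libraries only, 3 with the replicate block within treatment (added after seeing the data; 3405 for the untreated sorts) and 0 to 1 with a library left out (1 without untreated 2N replicate 2). Cytochalasin D against ZM447439 4N cells gave 5672, and 4771 to 5642. With more genes tested the counts grow by construction; other causes were not tested. The replicate block gave 3660 higher and 5464 lower genes; deviations of same-numbered libraries correlated at 0.319, -0.157 and 0.264, so the numbers are not read as pairs, and not every library correlates best with its own number. The median of the G1 cyclin, CDK and inhibitor list (0.27) reversed to -0.11 without the filter, -0.13 with a filter at 1 RPKM and -0.51 on RPM, where other members enter or leave the list. Of 147 named genes, 127 kept their call in each of the 16 settings that tested them (13 genes were not tested with the filter at 1 RPKM) and 20 did not in at least 1, among them CDKN1A (adjusted p = 0.0737 in 1 setting), UBE2C (0.0533 to 0.0932 in 4), and, in 1 or 2 settings each, CCN1, CCNF, CDKN2B, CEBPB, DNAJC3, DUSP4 and THBS1; none reversed. MT-CO1 and MT-CO2 lost the call after quantile normalization (0.397 and 0.376).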

Other observations

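Classes of genes other than protein-coding ones were not all alike in cytochalasin D 4N against untreated 2N cells. Of 157 tested small nucleolar RNA genes 55 fell, 37 of them by 2-fold or more, and 3 rose, with a median of -0.54; the shares of 35.0% falling and 1.91% rising compare with 40.2% and 26.4% of all tested genes. These are short genes within introns, where their reads cannot be told from those of the host transcript; NOP56, a host gene, fell by 1.65. Of 1839 processed pseudogenes 1007 fell (54.8%) and 151 rose (8.21%), with a median of -0.27; they are copies of expressed genes and reads can be shared with the source gene. Of 283 lincRNA genes 107 rose (37.8%) and 71 fell (25.1%), and of 1328 antisense genes 410 rose (30.9%) and 425 fell (32.0%). The shares of all tested genes were 26.4% rising and 40.2% falling. Among genes with the shortest spans (50 to 1662 bp) 13.9% rose and 42.5% fell, and among those with the longest (30275 to 623082 bp) 28.1% rose and 42.8% fell.

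Of the 5 tested markers of retinal pigment epithelium, OTX2, a factor of that lineage, was at 3.76, 4.13 and 4.06 RPKM against 2.72, 2.59 and 2.26 RPKM (log2 change 0.57, limma BH-adjusted p = 1.44e-04). KRT18 and KRT8, keratins of simple epithelia whose annotated spans overlap, fell by 0.86 and 0.80. BEST1 rose by 1.17 and PMEL fell by 1.99, each in step with the gene that overlaps it: FTH1 was at 334.0 against 144.0 RPKM and CDK2 at 1.596 against 11.53 RPKM. CD68, the lysosomal member of the blood list, was at 27.6, 36.8 and 39.0 RPKM against 18.3, 20.6 and 20.2 RPKM and rose by 0.78.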
